A study of Homo sapiens with 17 samples.

Results

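The genes described here were 32 genes of cholesterol and fatty acid synthesis and of cholesterol transport. They were chosen by name, with earlier results of these data known, and matched by symbol to the Ensembl identifiers of the files. Each matched 1 identifier, so that the set held 32 of the 58302 genes of the 13 count libraries and 31 of the 28285 genes of the 4 libraries given as normalised levels, where the identifier of ACACA was not listed. The set comprised the mevalonate enzymes ACAT2, HMGCS1, MVK, PMVK, MVD, IDI1 and FDPS, the squalene and sterol enzymes FDFT1, SQLE, LSS, CYP51A1, TM7SF2, MSMO1, NSDHL, HSD17B7, EBP, SC5D and DHCR7, the regulators SREBF1, SREBF2, SCAP, INSIG1 and INSIG2, the transport genes STARD4, NPC1, ABCA1 and ABCG1, and the fatty acid enzymes FASN, ACACA, SCD, FADS1 and FADS2.

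The study followed blood formation from endothelium made from H1, an established line of human embryonic stem cells, and asked what vitamin C changed in it. Bulk RNA sequencing covered 17 libraries, all of GATA2/eGFP+ endothelial cells (cells whose green reporter marks GATA2, a transcription factor of blood-forming endothelium) or of cells grown from them. The groups with 1 library each were the sorted endothelium at 0 h and the re-plated cultures at 24, 36, 48 and 60 h, for cells derived without and with vitamin C, which makes 10 libraries of a time course. The remaining groups of 1 library each came from endothelium derived with vitamin C, namely the adherent cells at 60 h and the cells in suspension at 60 h and at 96 h. The other 4 libraries were sorted endothelium, 2 per vitamin C condition by their titles. The labels describe the re-plated cultures as mixtures of endothelial and hematopoietic cells, and they give 1 cell line, no clone, no passage and no statement that libraries came from separate cultures. A p-value over the course therefore measures the spread of single libraries around the fitted effects of time and vitamin C, which may not be the spread between cultures.

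Cholesterol is built from acetyl-CoA through mevalonate, isoprenoid units and squalene, and lanosterol is then trimmed to cholesterol by a chain of sterol enzymes. The transcription factors encoded by SREBF2 and SREBF1 switch on most of these enzymes and the fatty acid enzymes when membrane sterol is low. SCAP escorts them out of the endoplasmic reticulum, and the INSIG proteins hold them there when sterol is plentiful. The efflux pumps ABCA1 and ABCG1 follow the opposite logic, being switched on by liver X receptors that sense oxidised sterols. Endothelium and blood progenitors both need these lipids for membranes, and sterol efflux is known to limit the expansion of blood progenitors.

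Short stretches upstream of 6 genes are shown because each holds a sterol regulatory element core, a CCAAT box or both, and because these genes moved in the comparisons that follow. No element of the liver X receptors was searched. Sequences are from the RefSeq promoter table (GRCh38.p14), 5′ to 3′ on the gene's strand, each ending at the base before the gene's first annotated base. They lie at chr22:41832929-41833078 on the plus strand (SREBF2), chr7:155297628-155297775 plus (INSIG1), chr16:88663162-88663311 minus (MVD), chr4:165327473-165327622 plus (MSMO1), chr10:100346983-100347123 plus (SCD) and chr9:104928238-104928387 minus (ABCA1), and none overlapped a coding exon of another gene. Capitals mark the sterol regulatory element core CACNCCAC, or GTGGNGTG on the other strand, and the CCAAT box, or ATTGG on the other strand.
SREBF2: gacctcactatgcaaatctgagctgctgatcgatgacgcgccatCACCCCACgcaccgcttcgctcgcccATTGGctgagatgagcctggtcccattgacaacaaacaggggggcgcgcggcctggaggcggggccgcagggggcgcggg
INSIG1: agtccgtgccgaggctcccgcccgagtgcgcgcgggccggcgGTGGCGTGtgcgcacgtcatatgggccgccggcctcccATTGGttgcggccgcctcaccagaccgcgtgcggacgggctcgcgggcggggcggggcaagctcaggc
MVD: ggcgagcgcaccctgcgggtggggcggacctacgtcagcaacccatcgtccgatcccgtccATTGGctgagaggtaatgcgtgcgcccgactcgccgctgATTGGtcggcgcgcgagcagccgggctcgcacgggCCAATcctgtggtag
MSMO1: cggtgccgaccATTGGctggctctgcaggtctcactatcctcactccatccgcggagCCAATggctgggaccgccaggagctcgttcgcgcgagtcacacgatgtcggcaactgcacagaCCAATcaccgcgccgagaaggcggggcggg
SCD: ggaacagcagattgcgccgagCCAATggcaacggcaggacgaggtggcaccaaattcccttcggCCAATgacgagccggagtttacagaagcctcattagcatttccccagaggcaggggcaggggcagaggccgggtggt
ABCA1: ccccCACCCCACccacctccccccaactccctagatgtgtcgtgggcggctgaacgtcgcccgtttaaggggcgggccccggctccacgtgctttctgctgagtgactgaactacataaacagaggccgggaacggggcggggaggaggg
SREBF2 and INSIG1 each had 1 core and 1 CCAAT box in these windows, MVD and MSMO1 had 3 CCAAT boxes each and no core, SCD had 2 CCAAT boxes, and ABCA1 had 1 core. Over the full 250 bases before each start, the table held 27 of the 32 genes. ACAT2, FDFT1, SQLE, ABCG1 and FASN were not matched. The core was found before 7 of the 27 (25.9%: ABCA1, ACACA, IDI1, INSIG1, SC5D, SCD and SREBF2), against 5.89% of the 27305 genes of the table. A CCAAT box was found before 18 of the 27 (66.7%), against 37.0% of all genes. The palindrome CACGTG (E-box) was found before 4 of the 27 (14.8%: ABCA1, INSIG1, SC5D and SCAP), against 7.73%. Both strands were searched, and each motif was counted by itself whether or not it overlapped another. A gene counted where any of its listed starts had the motif. For ACACA, IDI1 and SC5D the core was found at only some of the listed starts. The cores of ACACA, IDI1, SC5D and SCD lay inside the gene as GENCODE annotates it. A match describes the letters and is not a measured binding site.

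The count libraries held 6214675 to 11058345 counts, of which the 32 genes took 0.645% to 1.13%. All 10 endothelial markers were present in every count library, with a summed level of 7009 to 9519 CPM (counts scaled to the library total) over the course, 9772 in the adherent cells, 1951 in the suspended cells at 60 h and 893 at 96 h. The summed level of 10 general blood cell markers was 71.1 to 440.3 CPM over the course, 149 in the adherent cells, and 2036 and 3813 in the suspended cells at 60 and 96 h. PTPRC, the pan-leukocyte marker CD45, was at 0 in 8 of the 13 libraries. Hepatocyte and yolk sac endoderm markers, which mark another cell type with high lipid synthesis, summed to at most 11.4 CPM in any count library, and SERPINA1 and AHSG were at 0 in all 13. In such bulk libraries, fewer cells of a type and less RNA per cell cannot be told apart.

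The sorted endothelium gave levels per transcript length (TPM, scaled for length and for the library total), in which genes can be ranked against each other. The mean over the 4 libraries was 972 TPM for FADS2 (delta-6 desaturase), 886 for FDPS (farnesyl diphosphate synthase), 873 for SCD (stearoyl-CoA desaturase), 692 for FDFT1 (squalene synthase), 429.7 for FASN (fatty acid synthase) and 301 for HMGCS1 (which makes HMG-CoA). SCD was at 1048 and 837 TPM without vitamin C and 1034 and 573 with it, so the order of the first 3 genes was not separated beyond the spread of the libraries. The efflux pumps were lowest, with means of 11.2 TPM for ABCA1 and 4.91 for ABCG1. ABCA1 stood at 12.8 and 6.92 TPM without vitamin C and 21.0 and 4.10 with it. ABCG1 stood at 3.58 and 1.76 TPM without and 13.1 and 1.23 with. By the annotation (GRCh38, GENCODE 29) the pumps lie at chr9:104781002-104928237 on the minus strand (ABCA1) and chr21:42199689-42297244 plus (ABCG1), and FASN and SCD at chr17:82078333-82098332 minus and chr10:100347124-100364834 plus. The plot of levels in sorted endothelium gives every gene by library.

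**Figure D1:**
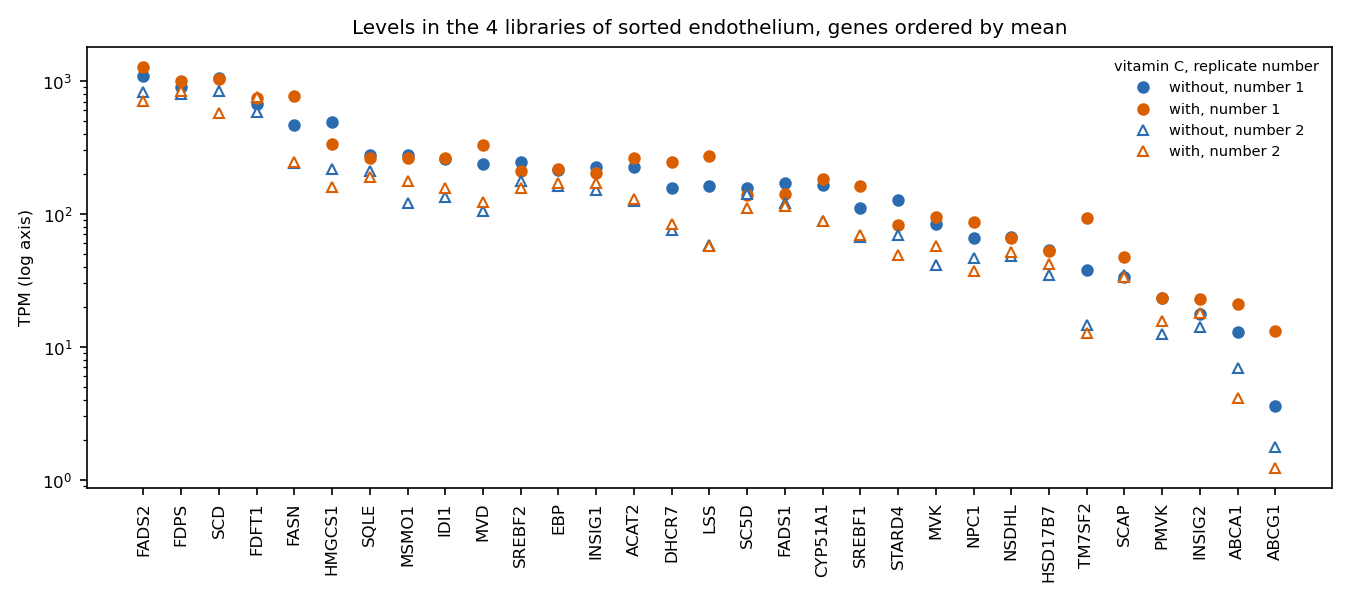
Level in TPM (log axis) of the 31 measured genes in each of the 4 libraries of sorted endothelium, ordered by the mean; colour gives the vitamin C condition and shape the replicate number of the title. FADS2, FDPS and SCD lead at means of 972, 886 and 873 TPM, ABCA1 and ABCG1 are lowest, and 27 of 31 genes had both number 1 libraries above both number 2 libraries.

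In the first day after re-plating the set moved both ways, with ABCA1, NPC1, SQLE and LSS among the genes that rose and 4 desaturases as those that fell. Of the 32 genes, 8 were higher at 24 h than at 0 h and 4 were lower (edgeR quasi-likelihood test, Benjamini-Hochberg adjusted p below 0.05 over 16276 genes, with vitamin C as a term), against 16.2% of all genes called higher and 17.2% called lower. The shares of the set, 25.0% and 12.5%, lay near that background. The median of the 32 was 0.07 on the log2 scale, against -0.02 over all genes tested. By role, 1 of 7 mevalonate enzymes, 4 of 11 squalene and sterol enzymes and 3 of 4 transport genes rose, none of 5 regulators was called in either direction, and 1 sterol enzyme and 3 of 5 fatty acid enzymes fell. The labels give the 0 h cells as GATA2+ endothelium and the later cultures as mixtures, so time and make-up cannot be told apart in this step.

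ABCA1, which loads cellular cholesterol onto lipoproteins, changed most. At 0 h the cells derived without vitamin C held 38.6 CPM and those derived with it 56.7 CPM, and both libraries of 24 h held 142 CPM. Both 24 h libraries lay above both 0 h libraries, and the log2 difference was 1.61 ± 0.14 (SE, 10 libraries; edgeR adjusted p = 6.83e-06). NPC1, which carries cholesterol out of lysosomes, stood (without, then with vitamin C) at 53.1 and 55.3 CPM at 0 h and at 83.5 and 80.0 CPM at 24 h, a rise of 0.61 ± 0.14. STARD4, a cytosolic sterol carrier, rose by 0.40 ± 0.11. ABCG1, the second efflux pump, was at 1.81 and 6.89 CPM and then at 5.88 and 5.95 CPM, and its difference of 0.60 ± 0.35 did not pass.

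SQLE, the epoxidase that oxidises squalene, went from 166 and 252 CPM at 0 h (without, then with vitamin C) to 331 and 392 CPM at 24 h. The groups did not overlap, and the log2 difference was 0.83 ± 0.13 (edgeR adjusted p = 4.27e-04). LSS, which closes squalene epoxide into lanosterol, rose from 21.1 and 22.5 CPM to 33.7 and 49.2 CPM (0.95 ± 0.22). MVD, the last mevalonate step before isoprenoid units, rose from 78.5 and 75.8 CPM to 113 and 121 CPM (0.63 ± 0.14). NSDHL, a sterol decarboxylase, rose by 0.55 ± 0.16. CYP51A1, which demethylates lanosterol, was called at 0.93 ± 0.33 (edgeR adjusted p = 0.048) but held 3.56 to 14.1 CPM over the course, against 88.0 to 182 TPM in the sorted endothelium. GENCODE 29 places 2 other coding genes on the same strand over it (AC000120.2 and AC000120.3), so its counts are uncertain.

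The 4 genes that fell all encode desaturases. SC5D, the sterol desaturase near the end of the pathway, went from 284 and 252 CPM at 0 h (in the same order) to 133 and 166 CPM at 24 h (log2 difference -0.81 ± 0.17; edgeR adjusted p = 0.0030). SCD, which makes monounsaturated fatty acids, stood at 1974 and 1958 CPM and then at 1401 and 1254 CPM (-0.55 ± 0.10). FADS1 (delta-5 desaturase) fell by 0.46 ± 0.10 and FADS2 by 0.43 ± 0.10 on the log2 scale. FADS1 and FADS2 overlap on opposite strands of chromosome 11, and whether the counting used strand is not given in the sources used here. FASN, which makes palmitate, was at 860.4 and 921 CPM and then at 944 and 913 CPM, a difference of 0.08 ± 0.09 that did not pass. The other 19 genes did not pass either, with fitted differences from -0.37 (ACACA) to 0.60 (ABCG1). Among them were HMGCS1 (0.14 ± 0.19), the thiolase ACAT2 (0.34 ± 0.16), the kinase PMVK (0.56 ± 0.21; edgeR adjusted p = 0.063), FDFT1 (-0.28 ± 0.12), the sterol sensor INSIG2 (0.43 ± 0.20) and SREBF2 (-0.13 ± 0.09).

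SQLE, ABCA1 and SCD remained called when each of the 10 libraries was left out in turn. Without the 24 h library with vitamin C, 2 genes were called higher and 5 lower, where MVD, LSS, NSDHL, CYP51A1, STARD4 and NPC1 were lost and ACACA was called lower. Without the 24 h library without vitamin C, 6 were called higher and 1 lower, where SC5D, FADS1 and FADS2 were lost. NSDHL and STARD4 were also lost without the latter library, NSDHL without the 0 h library without vitamin C, and CYP51A1 without any of 5 other libraries. Between 0 and 24 h, 5 endothelial markers of 10 rose and 2 fell, and 4 mesenchymal markers of 9 tested fell and 1 rose, with summed mesenchymal levels of 2081 to 2242 CPM at 0 h and 656 to 928 CPM at 24 h. The part of these markers in the differences was not tested.

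**Figure D2:**
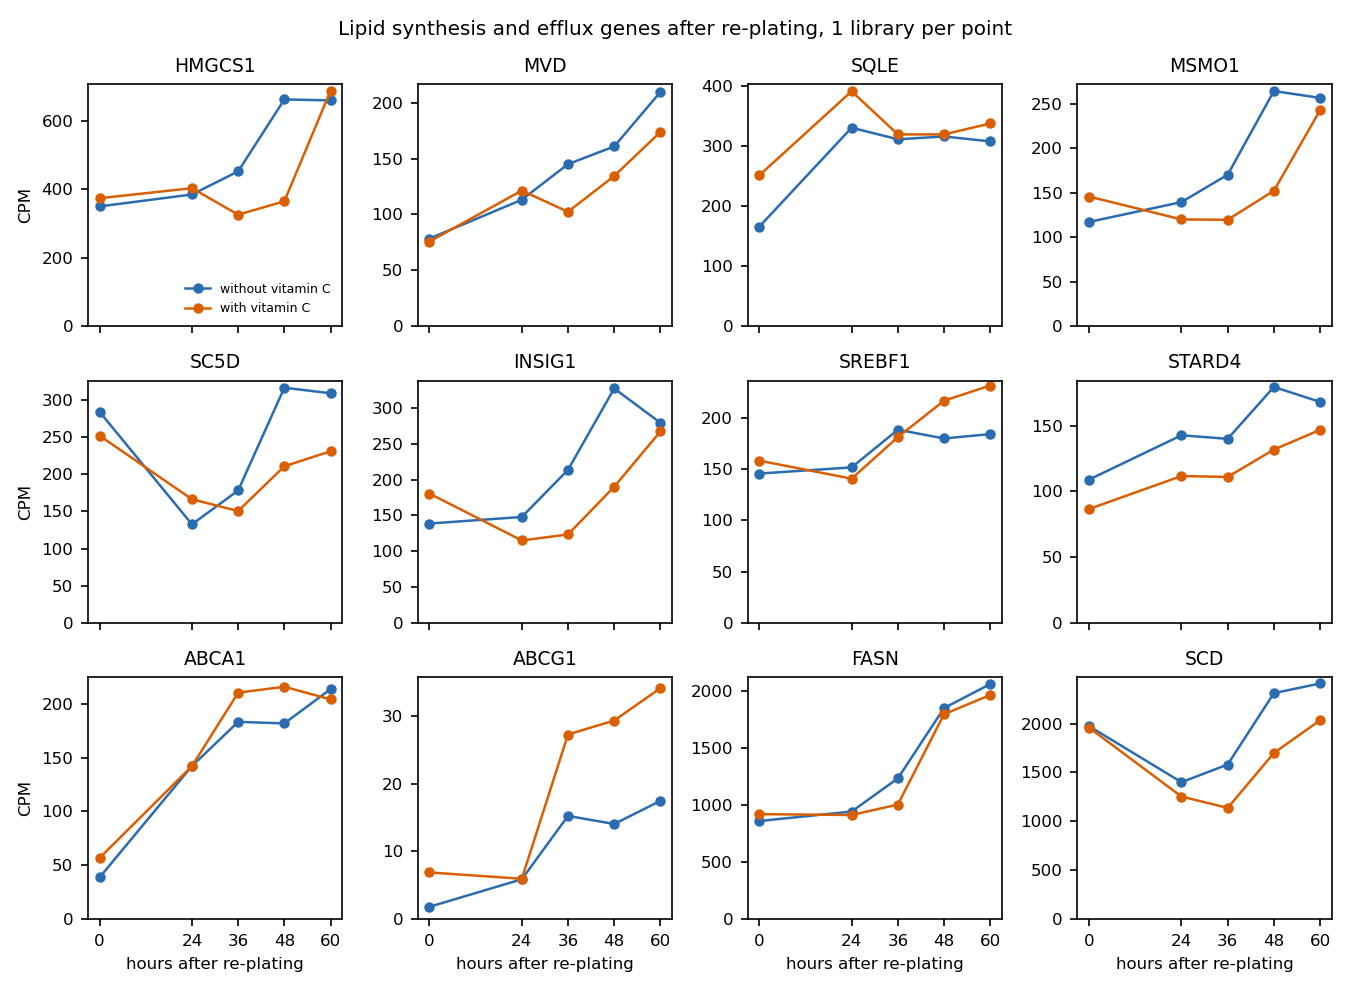
CPM of 12 of the genes against hours after re-plating, 1 library per point, for cells derived without (blue) and with (orange) vitamin C. ABCA1 climbs from 38.6 and 56.7 CPM at 0 h to over 200 at 60 h, SCD and SC5D dip at 24 h, FASN climbs after 36 h, and SQLE stays level after 24 h.

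Between 24 and 60 h the set moved upward. Of the 32 genes, 17 were higher at 60 h than at 24 h and 0 were lower in edgeR, against 12.1% of all 16276 genes called higher and 11.4% called lower. The share that rose was 53.1% of the set. The set was chosen with earlier results of these data known, so its contrast with all genes is not an independent test. At an unadjusted p below 0.05, 22 were higher and 0 lower, against 5803 of all 16276 genes in either direction. DESeq2 called 15 of the set higher and 0 lower, against 1502 and 1510 of all genes. The median was 0.52 on the log2 scale, against 0.02 over all genes, and 30 of the 32 differences were positive. The rise took in 2 of 7 mevalonate enzymes, 6 of 11 squalene and sterol enzymes, 3 of 5 regulators, 2 of 4 transport genes and 4 of 5 fatty acid enzymes. This comparison and the one before it share the 24 h libraries.

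Transcripts of 4 of the 5 fatty acid enzymes rose. FASN held 944 CPM (no vitamin C) and 913 CPM (vitamin C) at 24 h, and in the same order stood at 1234 and 1005 CPM at 36 h, at 1852 and 1798 CPM at 48 h and at 2062 and 1966 CPM at 60 h. All 4 libraries of 48 and 60 h lay above all 4 of 24 and 36 h, and the log2 difference of 60 h from 24 h was 1.11 ± 0.09 (edgeR adjusted p = 1.18e-05). SCD went from 1401 and 1254 CPM at 24 h through 1581 and 1137 CPM at 36 h and 2311 and 1699 CPM at 48 h to 2411 and 2034 CPM at 60 h (0.73 ± 0.10). FADS2 rose by 0.79 ± 0.10 and FADS1 by 0.69 ± 0.10. ACACA, the carboxylase that feeds FASN, was near the limit of counting at 1.05 to 12.7 CPM over the course, and its difference of 1.19 ± 0.73 did not pass.

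Among the sterol enzymes, TM7SF2 (a sterol reductase) had the largest difference. It stood at 11.8 and 11.1 CPM at 24 h and at 37.9 and 31.5 CPM at 60 h (1.59 ± 0.25; edgeR adjusted p = 8.81e-04), with the caveat that VPS51 overlaps it on the same strand. MSMO1, the sterol C4 methyl oxidase, stood at 140 and 120.2 CPM at 24 h and at 257 and 243 CPM at 60 h (0.94 ± 0.19). SC5D, DHCR7 (the last reductase), EBP (a sterol isomerase) and FDFT1 rose by 0.82, 0.72, 0.62 and 0.47. HMGCS1 stood at 385 and 404 CPM at 24 h and at 660.2 and 689 CPM at 60 h (0.76 ± 0.19), and MVD rose by 0.69 ± 0.14. SQLE, at 331 and 392 CPM at 24 h and at 308 and 338 CPM at 60 h, had one of the 2 negative differences (-0.17 ± 0.13), the other being that of NPC1 (-0.07 ± 0.13). Neither passed the test. The remaining mevalonate and sterol enzymes had positive differences that did not pass, with MVK at 0.42 ± 0.21, IDI1 (the isomerase of isoprenoid units) at 0.39 ± 0.16, PMVK at 0.29 ± 0.21, ACAT2 at 0.28 ± 0.16, FDPS at 0.23 ± 0.11, LSS at 0.47 ± 0.21, NSDHL at 0.38 ± 0.16, CYP51A1 at 0.31 ± 0.31 and HSD17B7, a sterol ketoreductase, at 0.56 ± 0.19 (edgeR adjusted p = 0.053).

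Of the regulators 3 rose. INSIG1, itself a target of the factors that it restrains, stood at 148 and 115 CPM at 24 h, at 214 and 123 CPM at 36 h, at 328 and 190.1 CPM at 48 h and at 280 and 268 CPM at 60 h (1.06 ± 0.22; edgeR adjusted p = 0.0043). Both 60 h libraries lay above both 24 h libraries. SREBF1 rose by 0.49 ± 0.12 and SREBF2 by 0.31 ± 0.09. SCAP (0.22 ± 0.14) and INSIG2 (0.10 ± 0.20) did not pass. Both efflux pumps rose over the same interval. ABCG1 went from 5.88 and 5.95 CPM at 24 h to 17.5 and 34.1 CPM at 60 h (2.01 ± 0.30), and ABCA1 from 142 CPM in both to 214 and 204 CPM (0.55 ± 0.14).

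TM7SF2, INSIG1, ABCG1, FASN, SCD, FADS1 and FADS2 remained called whichever of the 10 libraries was left out. The count of genes that rose was 10 without the 24 h library without vitamin C, where HMGCS1, MVD, FDFT1, MSMO1, SC5D, DHCR7 and SREBF2 were lost. FDFT1 was lost without any 24 h or 60 h library, HMGCS1, EBP and SREBF1 without the 60 h library with vitamin C, EBP, SREBF1, SREBF2 and ABCA1 without the 24 h library with vitamin C, DHCR7, SREBF2 and ABCA1 without the 60 h library without vitamin C, and SREBF2 without either 36 h library. Over the same interval all 10 cell cycle markers fell, with sums of 1764 to 1791 CPM at 24 h and 616 to 1125 CPM at 60 h. All 9 erythroid markers tested rose, with sums of 3.14 to 5.15 CPM and then 69.3 to 181 CPM, and 6 of 9 blood cell markers rose, with sums of 75.8 to 146 CPM and then 107 to 440.3 CPM. The part of these shifts in the lipid genes was not tested.

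**Figure D3:**
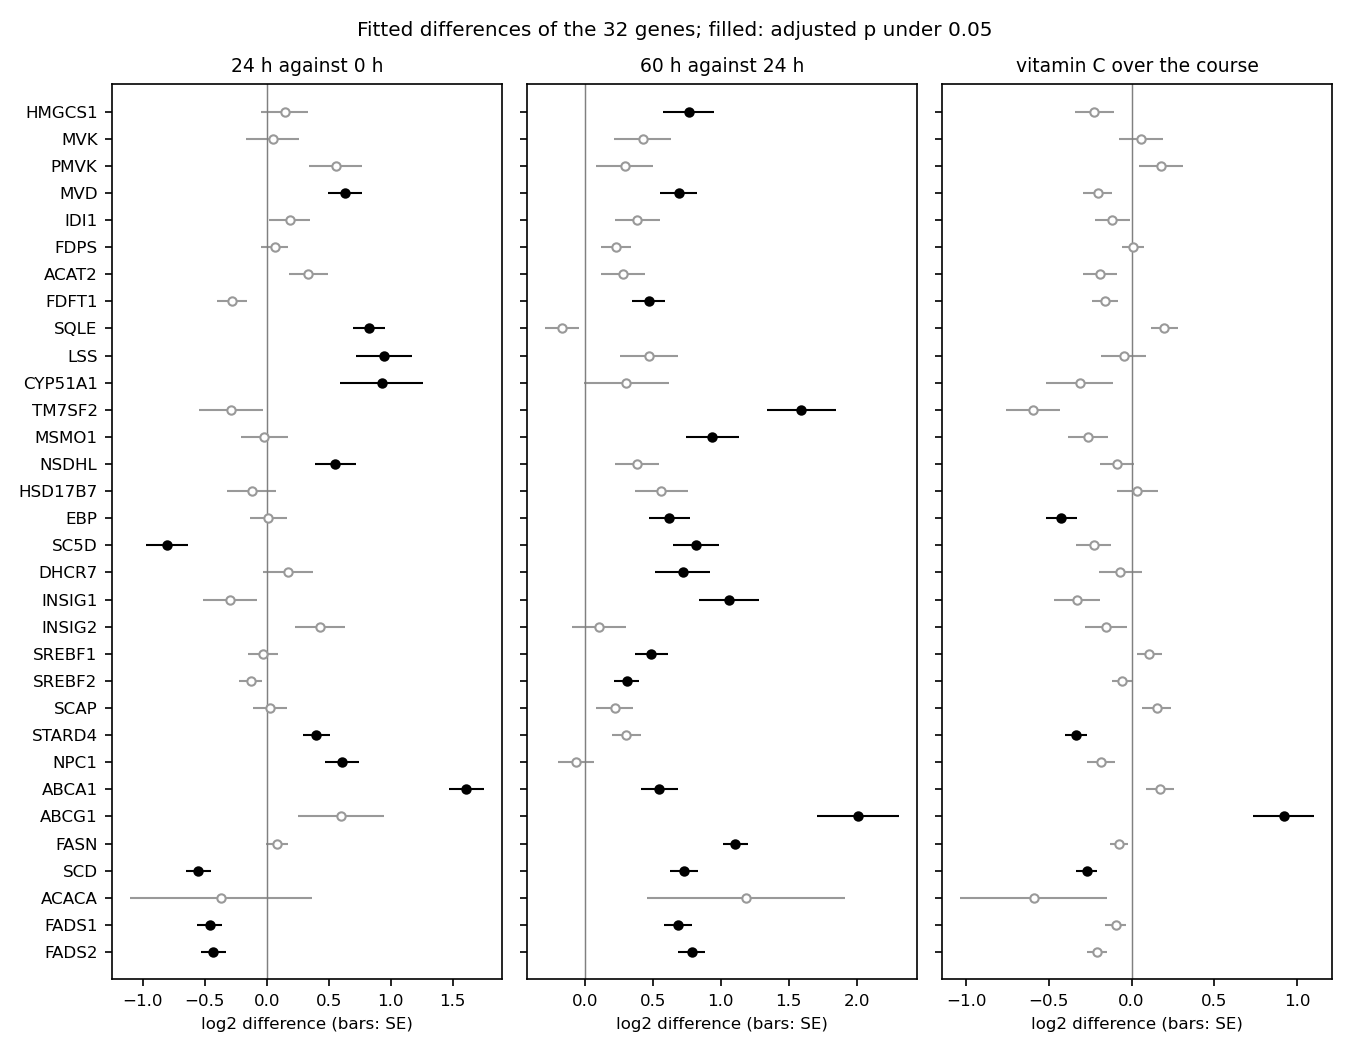
Fitted log2 difference of each of the 32 genes in 3 comparisons of the course (points, with SE bars; filled where the adjusted p was below 0.05), ordered by role from mevalonate enzymes at the top to fatty acid enzymes at the bottom. Between 0 and 24 h 8 genes pass to the right of 0 and 4 to the left, between 24 and 60 h 17 pass to the right and 0 to the left, and for vitamin C 1 passes to the right and 3 to the left.

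A list of 48 other genes of lipid synthesis, uptake and sterol sensing, of which 47 were tested, gave the surroundings of the set. Of the 47, 13 were higher and 8 lower at 24 h than at 0 h, against 16.2% and 17.2% of all genes tested. SOAT1, which esterifies cholesterol, rose by 0.83 ± 0.14, and ME1, the malic enzyme that supplies NADPH, by 0.79 ± 0.14. NR1H3, the liver X receptor alpha, fell by 1.22 ± 0.20 on the log2 scale and NPC2, the lysosomal partner of NPC1, by 0.69 ± 0.14, the latter lost without the 24 h library without vitamin C. At the later step 13 of the 47 were higher and 4 lower at 60 h than at 24 h, against 12.1% and 11.4% of all genes. ACSS2 (acetyl-CoA synthetase; 1.73 ± 0.19), NR1H3 (1.55 ± 0.20) and NPC2 (1.03 ± 0.14) were among those that rose.

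With vitamin C, few of the genes changed over the course as a whole. One of the 32 genes was higher and 3 were lower with vitamin C (edgeR with time as a factor), against 2.50% of the 16276 genes called higher and 3.37% called lower. These are 3.12% and 9.38% of the set, few enough that the counts themselves say little about it. Of the 32 differences 23 were negative, the median was -0.14 on the log2 scale against 0.01 over all genes, and 11 genes had an unadjusted p below 0.05, 9 lower and 2 higher, against 3009 of all 16276 genes in either direction.

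ABCG1 was the gene that was higher. Without vitamin C it stood at 1.81, 5.88, 15.2, 14.0 and 17.5 CPM at 0, 24, 36, 48 and 60 h, and with vitamin C at 6.89, 5.95, 27.3, 29.3 and 34.1 CPM. The library with vitamin C was higher at all 5 times, by little at 24 h, and the log2 difference was 0.92 ± 0.19 (edgeR adjusted p = 0.012). ABCA1 followed at 0.17 ± 0.09, which did not pass.

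The 3 genes that were lower have different roles. STARD4 stood at 109, 143, 140.0, 179 and 168 CPM without vitamin C and at 86.6, 112, 111, 132 and 147 CPM with it, lower at all 5 times (log2 difference -0.34 ± 0.07; edgeR adjusted p = 0.010). EBP stood at 47.2, 57.0, 59.2, 63.9 and 78.9 CPM without and at 45.5, 37.2, 40.2, 41.8 and 65.3 CPM with vitamin C, also lower at every time (-0.42 ± 0.09; edgeR adjusted p = 0.020). SCD, at 1974 and 1958 CPM at 0 h, was lower with vitamin C from 24 h on (-0.27 ± 0.06; edgeR adjusted p = 0.026). TM7SF2 (-0.59 ± 0.16; edgeR adjusted p = 0.051) and FADS2 (-0.21 ± 0.06; edgeR adjusted p = 0.077) lay just outside the threshold. The other 26 genes ranged from -0.59 (ACACA) to 0.20 (SQLE, which was at 166, 331, 312, 317 and 308 CPM without vitamin C and at 252, 392, 320.1, 320.1 and 338 CPM with it). SREBF1 (0.11 ± 0.08) and SREBF2 (-0.06 ± 0.06) did not pass, and neither did INSIG1 (-0.33 ± 0.14), MSMO1 (-0.26 ± 0.12) or HMGCS1 (-0.23 ± 0.12).

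All 3 lower calls were lost without either 36 h library or either 48 h library, each of which left 0 genes lower. EBP was also lost without either 24 h library and SCD without the 60 h library with vitamin C. ABCG1 was lost without either 48 h library or the 36 h library with vitamin C, which left 0 genes higher. Without the 0 h library of either condition, 8 genes were called lower. Leaving out either library of a time removes that time's vitamin C difference from the fit. The 10 leave-outs are therefore not 10 separate checks of vitamin C. In the other lipid list, 2 of 47 genes were higher with vitamin C and 5 lower, against 2.50% and 3.37% of all genes. RXRA, the partner of the liver X receptors, was higher by 0.50 ± 0.09, and ACSS2 (-0.50 ± 0.12), ME1 (-0.43 ± 0.09) and ELOVL2 (-1.93 ± 0.41; a fatty acid elongase) were lower. RXRA remained called in all 10 leave-outs, whereas ACSS2 was called in 4 (lost without any 36, 48 or 60 h library), ME1 in 7 (lost without either 36 h library or the 24 h library with vitamin C) and ELOVL2 in 7 (lost without either 48 h library or the 36 h library without vitamin C). Of the 9 blood cell markers tested 8 were higher with vitamin C (sums of 71.1 to 117 CPM without and 146 to 440.3 CPM with), and 5 of 9 mesenchymal markers were lower (sums of 928 to 2081 CPM without and 521 to 2242 CPM with). The part of these markers in the vitamin C differences was not tested.

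Taken time by time, the difference between the conditions was not even. The genes that were lower with vitamin C numbered 11 of 32 at 0 h, 18 at 24 h, 28 at 36 h, 24 at 48 h and 22 at 60 h, whereas 47.0% to 49.6% of all genes were lower at each time. The median difference on the log2 (CPM + 0.5) scale was 0.11 at 0 h, -0.03 at 24 h, -0.31 at 36 h, -0.25 at 48 h and -0.12 at 60 h. From 24 to 36 h, 25 of the 32 genes were higher at the later time without vitamin C (median 0.20), and 8 were with vitamin C (median -0.09). Over all genes 47.2% and 47.4% were higher in that step. From 36 to 48 h, 28 and 30 genes were higher at the later time, against 54.8% and 55.1% of all genes. From 0 to 60 h, all 32 were higher without vitamin C and 30 with it, against 48.8% and 49.1% of all genes. The plot of the vitamin C difference at each time shows the medians.

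INSIG1 illustrated this. At 0 h it held 139 CPM (no vitamin C) and 181 CPM (vitamin C), and in the same order it stood at 214 and 123 CPM at 36 h, at 328 and 190.1 CPM at 48 h, and at 280 and 268 CPM at 60 h. HMGCS1 stood at 453 and 326 CPM at 36 h, at 663 and 365 CPM at 48 h, and at 660.2 and 689 CPM at 60 h. Both genes were lower with vitamin C at 36 and 48 h and close at 60 h. With 1 library per condition and time, these single differences have no replicate check.

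**Figure D4:**
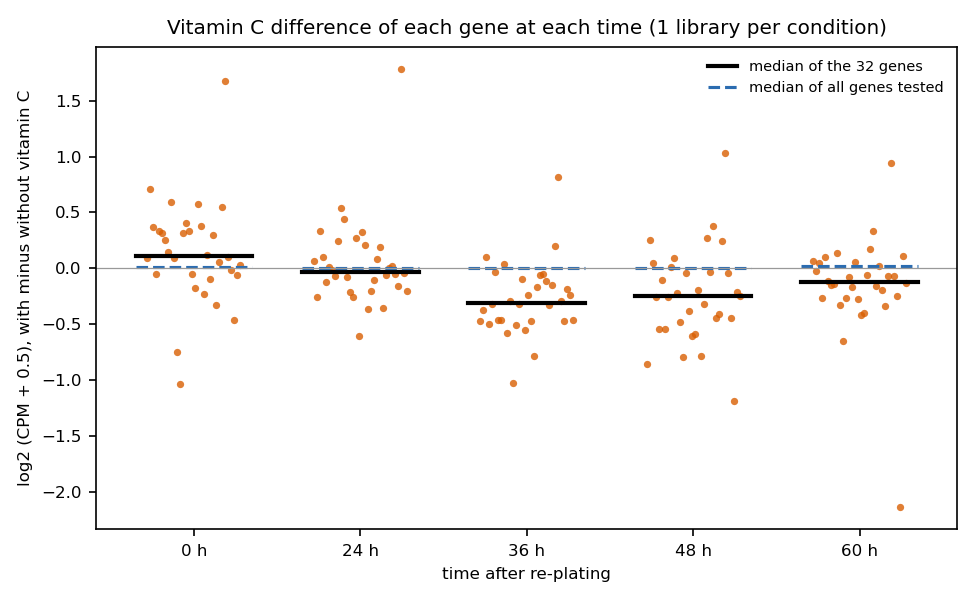
Difference in log2 (CPM + 0.5), with minus without vitamin C, for each of the 32 genes (points) at each time, 1 library per condition; the solid bar is the median of the 32 genes and the dashed bar that of all 16276 genes tested. The median of the 32 genes is 0.11 at 0 h, -0.31 at 36 h and -0.12 at 60 h, and the median of all genes stays near 0.

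Whether the course itself differed between the conditions was tested as a difference in slope, scaled to 60 h. None of the 32 genes passed in edgeR (0 higher and 0 lower, against 0% and 0% of all genes). One had an unadjusted p below 0.05, DHCR7 (-1.01 ± 0.36), and DESeq2 called 0 of the 32 and 7 genes in all. Of the 32 differences 27 were negative, with a median of -0.40 against 0.01 over all genes.

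At 60 h, ABCG1 and 3 enzymes of sterol synthesis were at least 2-fold lower by library totals in suspended than in adherent cells. The desaturases FADS1 and FADS2 and the sterol enzymes SQLE and TM7SF2 were higher in suspension, each by less than 2-fold. Here 1 library stood against 1, and a gene counts as past the fold where it differed at least 2-fold on the log2 (CPM + 0.5) scale and reached 5 CPM in the higher library. One of the 32 genes was past the fold upward and 4 downward, against 12.3% and 14.6% of the 12705 genes that reached the minimum, so that the downward share of the set (12.5%) lay near the background. In all, 23 of the 32 were lower in suspension, with a median of -0.38 on the log2 scale against 0.14 over all genes. Scaling by TMM moved every difference by -0.12 and changed the direction of 0 of the 32.

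ABCG1 stood at 39.9 CPM in the adherent and 6.18 CPM in the suspended cells, a ratio of 0.155 (95% counting interval 0.110 to 0.213). MSMO1 stood at 233 and 88.1 CPM (ratio 0.378, interval 0.344 to 0.414), MVD at 206 and 97.0 CPM (0.470, interval 0.429 to 0.514) and SC5D at 252 and 125 CPM (0.497, interval 0.459 to 0.539). ABCA1, at 214 and 108 CPM, lay just inside 2-fold. TMM scaling gave 6 genes past the fold downward, adding ABCA1 and FDPS, while SC5D was inside it with 5 CPM added and with totals without mitochondrial genes, which gave 3 each. These intervals cover counting error only. ACACA was higher in suspension at 10.5 against 4.80 CPM, which rests on 73 and 39 counts and was inside 2-fold with TMM scaling.

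FADS1, FADS2, SREBF1, INSIG1, TM7SF2, FASN, SCAP and SQLE were also higher in suspension, each by less than 2-fold. FADS1 stood at 391 CPM in the adherent and 751 CPM in the suspended cells (ratio 1.92, interval 1.84 to 2.01), FADS2 at 1152 and 1794 CPM, SREBF1 at 205 and 302 CPM and INSIG1 at 229 and 332 CPM. SCD was level at 2019 and 2012 CPM. Of the other lipid list, 5 genes were past the fold upward and 5 downward of 44 that reached the minimum. The shares over all genes were 12.3% and 14.6%. All 10 endothelial markers were lower in suspension and all 10 blood cell, 10 erythroid and 10 cell cycle markers higher. The erythroid sum was 13.9 CPM in the adherent and 1104 CPM in the suspended cells, and the cell cycle sum 871 and 1964 CPM. Their part in the lipid gene differences was not tested.

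From 60 to 96 h in suspension, both efflux pumps and the enzymes FASN and ACACA were more than 2-fold lower by library totals. None of the 32 genes was past the fold upward and 4 were downward, against 5.54% and 10.5% of 12405 genes, and the downward share of the set was again 12.5%. ABCA1 stood at 108 CPM at 60 h and 4.34 CPM at 96 h, from 752 and 48 counts (ratio 0.0402, 95% counting interval 0.0293 to 0.0538). ABCG1 was down to 3 counts from 43 (ratio 0.0439, interval 0.0087 to 0.137). FASN stood at 2423 and 1115 CPM (ratio 0.460), which TMM scaling put inside 2-fold (-0.91 on the log2 scale), and ACACA at 10.5 and 1.45 CPM.

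INSIG1, SQLE and FDPS were among the genes that were higher at 96 h by both scalings. So were EBP (60.1 CPM at 60 h and 86.9 CPM at 96 h) and PMVK (13.2 and 18.1 CPM). INSIG1 stood at 332 CPM at 60 h and 633 CPM at 96 h (ratio 1.90, past 2-fold with TMM scaling), SQLE at 360.2 and 454 CPM and FDPS at 226 and 337 CPM. FADS2 stood at 1794 and 1964 CPM and SCD at 2012 and 1678 CPM. By library totals 21 of the 32 were lower at 96 h, but TMM scaling moved every difference by 0.21 and reversed 9 of them, leaving 12 lower, so that no direction can be given for the set. The same suspended library at 60 h stands in both pairs. Between the suspended libraries the erythroid sum was 1104 CPM at 60 h and 11998 CPM at 96 h, and the endothelial sum 1951 and 893 CPM, whose part was not tested. In the other lipid list, 2 genes were past the fold upward and 3 downward of 42, against 5.54% and 10.5% of all genes.

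**Figure D5:**
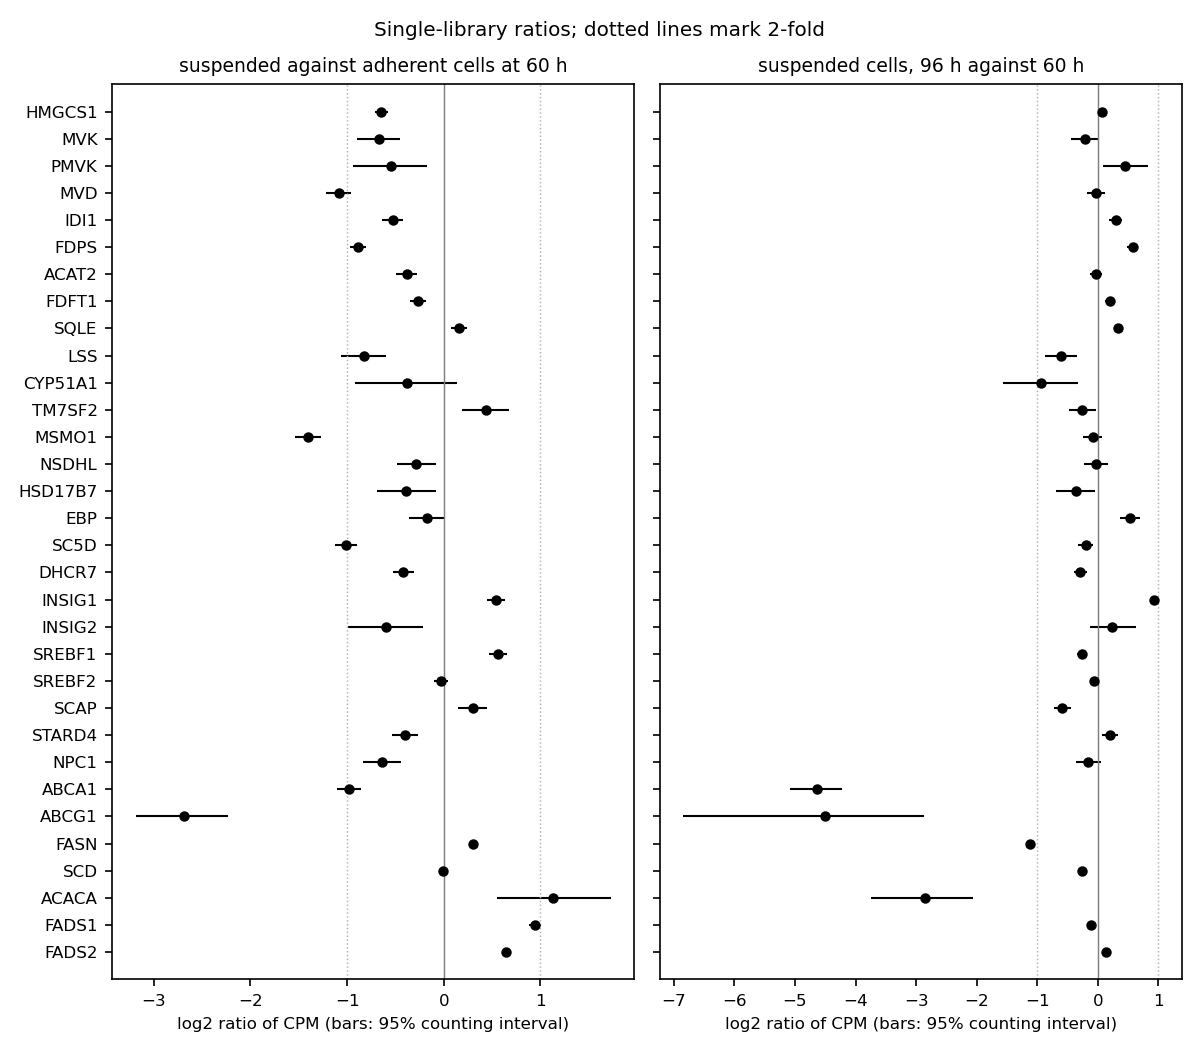
Log2 ratio of CPM for each of the 32 genes in the suspended against the adherent cells at 60 h (left) and in suspended cells at 96 h against 60 h (right), 1 library against 1, with 95% counting intervals; dotted lines mark 2-fold. ABCG1 lies far to the left in both panels, ABCA1 in the right panel, and MSMO1, MVD and SC5D lie left of the 2-fold line at 60 h.

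In the 4 libraries of sorted endothelium, no vitamin C difference of these genes stood out from the spread between replicates. None of the 31 measured genes passed (limma on log2 (TPM + 1), 0 higher and 0 lower, 0 at an unadjusted p below 0.05), against 0% and 0% of the 14421 genes tested, of which 313 had an unadjusted p below 0.05. Of the 31 differences 23 were positive, with a median of 0.12 against -0.09 over all genes. ABCG1, higher with vitamin C in the course, stood at 2.67 ± 1.29 TPM without and 7.14 ± 8.36 TPM with vitamin C (SD, n = 2 each). STARD4, lower in the course, stood at 98.0 ± 40.4 and 65.3 ± 23.5 TPM (SD, n = 2 each), and was lower with vitamin C in both replicate numbers.

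Most of these genes were separated by the replicate number of the title. Of the 31 genes 27 (87.1%) were higher in both number 1 libraries than in both number 2 libraries, against 37.1% of the 14421 genes tested. LSS stood at 162 and 273 TPM in number 1, without and with vitamin C, and at 58.8 and 57.4 TPM in number 2. HMGCS1 stood at 493 and 335 TPM in number 1 and at 216 and 159.8 TPM in number 2. FASN stood at 466 and 765 TPM and at 239.7 and 248 TPM. Marker sums moved with the number too, with endothelial sums of 3373 and 4203 TPM in number 1 and 2892 and 2518 TPM in number 2, blood cell sums of 128 and 78.9 against 171 and 296 TPM, and erythroid sums of 5.28 and 0.60 against 24.2 and 18.0 TPM. Hepatocyte and yolk sac endoderm sums were also higher in number 1, at 29.12 and 23.08 TPM against 13.03 and 11.77 TPM in number 2. Mesenchymal sums overlapped, at 2042.57 and 1320.1 TPM in number 1 and 1477.4 and 1044.84 TPM in number 2. The number 1 library titled with vitamin C stood apart in cell cycle markers, at 486 TPM against 1650 to 1994 TPM in the others. Their part in these differences was not tested. The titles and the descriptions disagree for 2 of these 4 libraries, since by the descriptions both number 1 libraries were without vitamin C and both number 2 libraries with it. Grouped by description, 1 of the 31 genes passed, LSS, lower with vitamin C at -1.84 on the log2 scale (limma adjusted p = 0.039), where grouping by title gave 0.36 ± 0.82. Over all 14421 genes the same grouping called 37 higher and 119 lower, so the change was not limited to LSS. Which grouping is right was not settled by the labels. For 12 of the 31 genes, the vitamin C difference by title had opposite signs in the 2 replicate numbers. No share over all genes stands beside this count, so it does not set these genes apart.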

How the data were processed

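RNA was extracted with Trizol and libraries were made from 1 µg of total RNA with a TruSeq kit, per the labels' protocols. The build hg38/GRCh38 and the tools SAMtools 1.3.1, DESeq 1.18.1, HTSeq 0.6.0 and HISAT2 2.0.4 are recorded in the submitters' processing notes; the tools' roles, the annotation and the use of strand are not given in the sources used here. The authors deposited raw counts per gene for 13 libraries and values read here as TPM for 4 sorted libraries, which the authors normalised before deposit, so that their depth is unknown.

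Counts were fitted with edgeR 4.0.16 in R 4.3.3 over the 10 course libraries (filterByExpr, TMM, quasi-likelihood, time as a factor plus vitamin C; a second model took hours times vitamin C). TPM was tested with limma 3.58.1 (at least 1 TPM in at least 2 libraries, 1 added). Adjusted p-values are Benjamini-Hochberg over all genes tested, with a threshold of 0.05. Single-library pairs used CPM with 0.5 added, 2-fold, 5 CPM in the higher library and exact 95% counting intervals, with no test; a count of 3 corresponds to 0.271 to 0.483 CPM. Members and lists were chosen with earlier results of these data known. All members are named; of the other list, up to 3 called genes per direction with the smallest p are named, and 1 such gene is not reported here. The steps were tested on simulated counts. DESeq2 1.42.0, other scalings, filters, models and left-out libraries were the alternatives. FDPS, SCD and HSD17B7 have pseudogene copies that could share reads.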

Additional observations from a re-analysis of the deposited data

Results flagged for a closer look

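MVK, FDPS, MSMO1, EBP and ACACA went in opposite directions in the 2 vitamin C conditions, each beyond the counting interval of its libraries. With 1 library per condition and time the difference was not tested. From 0 to 24 h, on the log2 (CPM + 0.5) scale, MVK (mevalonate kinase) changed by 0.54 without and -0.43 with vitamin C, FDPS by 0.20 and -0.10, MSMO1 by 0.25 and -0.28, and EBP by 0.27 and -0.29. From 24 to 60 h, ACACA changed by 3.09 without and -0.83 with vitamin C, at levels of 1.05 to 12.7 CPM. The ACACA values rest on 8 and 98 counts at 24 and 60 h without vitamin C, and on 30 and 17 with it. Opposite signs were looked for in all 32 genes over both intervals. No share over all genes stands beside the genes found, so they are not set apart from other genes. Counting intervals cover counting error only.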

How the results depend on the processing

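The count of genes lower with vitamin C, 3 in the fit described, was 9 with no filter on low counts, 7 without the 0 h pair and 0 without a term for time, where the count higher was 0 too. Leaving out 1 course library at a time gave 0 to 1 higher and 0 to 8 lower for vitamin C, 2 to 11 higher and 1 to 6 lower for 24 h against 0 h, 10 to 22 higher and 0 lower for 60 h against 24 h, and 0 for the difference in slope. For the sorted libraries, grouping by description gave 1 gene lower, LSS at -1.84, reversed from 0.36, and 37 genes higher and 119 lower over all genes, from 0 and 0. Suspended against adherent cells, the gene past the fold upward was lost (0) with TMM scaling and with 5 CPM added, and 96 h against 60 h with TMM scaling had 1 gene upward (INSIG1) and 3 downward in place of 4 (FASN at -0.91). No other called direction reversed among the 2263 values of the 32 genes recomputed under all alternatives, of which 2105 kept their side of the threshold or their size. The signs of uncalled differences were less stable. They changed in 72 of 279 values for the sorted cells, 38 of 480 for the slope and 20 of 480 for vitamin C over the course. For 24 h against 0 h they changed in 24 of 416, and for 60 h against 24 h in 6 of 416. DESeq2, DESeq2 size factors, the rank of the time in place of hours, other pseudocounts for TPM and totals without mitochondrial genes kept each count of genes within 1.5 times. A replicate block for the sorted libraries called 0 genes higher and 0 lower, and so changed no call. Same-numbered libraries deviated together from the means of their conditions (r = 0.565 over genes). With 2 libraries per condition these deviations mirror each other, so r is the same for both numbers by construction. In any case, 2 pairs with no label do not show pairing. In the counts, 3 counts correspond to 0.271 to 0.483 CPM, which limits ABCG1, ACACA and CYP51A1 most.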
